A study of Homo sapiens with 12 samples.

Results

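The comparison described here is that of HEK293 cells lacking the catalytic subunits of AMPK (AMPK KO) with wild-type (WT) HEK293 cells, both starved of serum and given solvent only. Its 4 libraries, 2 from each line, were chosen by their labels as those with DMSO and no EGF among the 12 libraries of the series. The other 8 libraries were from the same lines after DMSO and EGF or after cordycepin and EGF, in a study that asked whether the drug cordycepin needs AMPK to act on the response to a growth factor. HEK293 is a human line grown from embryonic kidney tissue, and cells of both lines stood for 24 h in medium with 0.1% FBS before receiving 0.025% (v/v) DMSO. The treatment protocol gives 20 min in DMSO without EGF and the sample labels give 50 min. In the AMPK KO line, both catalytic subunit genes, PRKAA1 and PRKAA2, had been targeted by CRISPR, and both lines were a gift from another laboratory. The number of clones behind the AMPK KO line is not given in the sources used here, so the loss of AMPK and other differences between the lines cannot be told apart. The study calls its replicates biological, but the labels do not say that they came from separate cultures. The p-values therefore measure the spread between replicate libraries, which may be in part technical. For genes, this spread was pooled over all 12 libraries. It may be understated where replicates agree less, as in WT DMSO.

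AMPK is a kinase of an alpha catalytic, a beta and a gamma subunit that is switched on when the cell runs short of ATP. It then favours pathways that yield ATP, such as fatty acid oxidation, glycolysis and autophagy, and restrains those that spend it, such as the synthesis of cholesterol, fatty acids and protein. Much of this control is by phosphorylation of enzymes and of the mTORC1 pathway, which RNA levels do not show.

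The values were RPKM, reads scaled by the length of the gene and a measure of library size, for 26058 listed genes. Of these, 22067 with a mean of at least 0.5 RPKM over the 12 libraries were tested. The reads on the listed genes numbered 16505489 and 4005805 in the WT DMSO libraries, replicates 2 and 3, and 15273556 and 16912230 in the AMPK KO DMSO libraries. WT DMSO replicate 3 was the shallowest of the 12 libraries, the other 8 holding 12676836 to 26434474, and 1170 genes had no read in it. The WT DMSO replicates also correlated least across genes (Pearson r = 0.918 over log2 values, against 0.960 to 0.977 in the other groups; genes are not independent). Of the markers of HEK293 cells, the neuronal and neurofilament genes summed to 321 and 321 RPKM in WT and to 343 and 373 RPKM in AMPK KO cells, and the kidney developmental genes to 38.1 and 37.5 RPKM against 36.5 and 33.5 RPKM. None of the 8 liver markers was tested, and 1 of 8 endothelial, 3 of 14 blood cell and 4 of 7 melanocyte markers were tested. Their summed levels over the 4 libraries were 1.07 to 1.95 RPKM, 3.21 to 11.5 RPKM and 2.83 to 3.77 RPKM.

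The targeted genes were still read in AMPK KO cells, at lower levels. PRKAA1, which encodes the alpha1 catalytic subunit (chr5:40759389-40798374, minus strand, GRCh38), stood at 21.9 and 15.4 RPKM in the WT DMSO libraries and at 7.62 and 7.37 RPKM in the AMPK KO ones. In the libraries with EGF it was at 17.4 and 19 RPKM in WT and 8.51 and 7.49 RPKM in AMPK KO cells, and with cordycepin and EGF at 11.3 and 11.2 RPKM against 7.03 and 8.50 RPKM. All 6 AMPK KO libraries thus lay below all 6 WT libraries, and in DMSO the gene was lower by a log2 difference of -1.26 (SE 0.167, adjusted p = 0.0228, limma with Benjamini-Hochberg adjustment, as for every adjusted p of a gene here). That call held under 13 of 18 alternative settings, with adjusted p from 0.00123 to 0.416.

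PRKAA2, for the alpha2 subunit (chr1:56645314-56715335, plus strand), was at 12.1 and 7.97 RPKM in WT and at 5.59 and 6.08 RPKM in AMPK KO cells. The DMSO groups did not overlap, but the difference did not pass the test (log2 difference -0.73, SE 0.202, adjusted p = 0.112). With cordycepin and EGF the lines overlapped for PRKAA2, at 6.78 and 7.30 RPKM in WT and 5.39 and 7.43 RPKM in AMPK KO cells. Of the 4 tested regulatory subunit genes, none passed the test, the largest difference being that of PRKAB1 at 0.47 (adjusted p = 0.217). Reads do not show whether the edited transcripts make protein.

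Across the tested genes, 97 passed an adjusted p of 0.05 between the lines in DMSO (0.44% of those tested), 62 higher (0.281%) and 35 lower (0.159%) in AMPK KO cells. Of these, 70 were protein coding, 46 higher and 24 lower, and 12 were lncRNA genes. At the study's own threshold, an unadjusted p of at most 0.05 and a log2 difference of at least 1 in size, there were 863 genes (3.91%), 438 higher (1.98%) and 425 lower (1.93%), and 1323 and 2023 without WT DMSO replicates 2 and 3. The count of 97 rested on the libraries used: 181 genes passed without WT DMSO replicate 2, 3065 without WT DMSO replicate 3, 8 and 5 without replicates 2 and 3 of the AMPK KO DMSO group. A group left with 1 library adds nothing to the pooled spread, so a higher count without a WT DMSO library need not mean more differences. Replicate 2, the WT DMSO library left without replicate 3, also had the steepest change with G+C content, described below. With the 4 DMSO libraries fitted alone, only CEBPE passed, against 2397 genes at an unadjusted p under 0.05. With the replicate number as a block within each line, 63 passed, 44 of the 97 among them. In the fit of all 12 libraries, 4707 genes (21.3%) had an unadjusted p under 0.05 in DMSO.

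**Figure D1:**
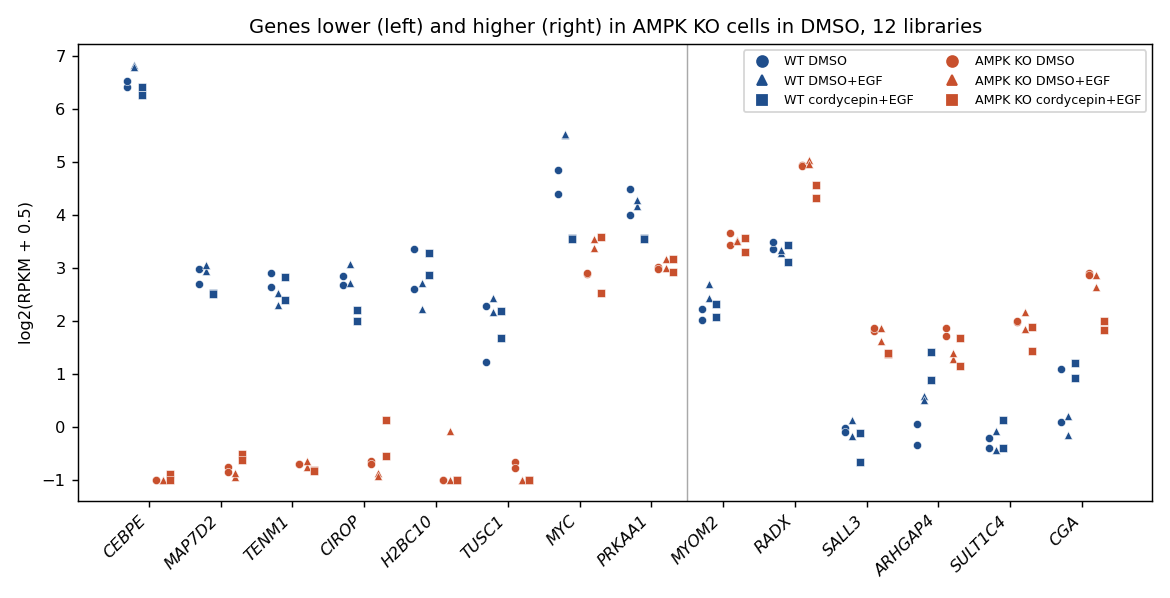
RPKM on a log2(RPKM + 0.5) scale (vertical axis) of 14 genes that passed the test in DMSO, with 1 point per library, blue for WT and orange for AMPK KO cells, and circles, triangles and squares for DMSO, DMSO with EGF and cordycepin with EGF. The 6 AMPK KO libraries of CEBPE lie at or near the floor of the scale, while its WT libraries lie between 76.2 and 114 RPKM.

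The largest fall in AMPK KO cells was that of CEBPE on chromosome 14, and its neighbour CIROP also fell. CEBPE (ENSG00000092067, chr14:23117036-23120256, minus strand), a C/EBP transcription factor known from the maturation of granulocytes, was at 84.8 and 91.8 RPKM in the WT libraries and had no read in either AMPK KO library. The WT libraries held 3199 of its reads, so that its RPKM in AMPK KO cells was at least 1.65e3-fold lower, with a floor of 3 reads over both libraries that covers counting error only. Its fitted log2 difference was -7.47 (SE 0.118, adjusted p = 7.57e-09), and it passed the test under all 18 alternatives. In bulk RNA, fewer cells with a transcript and less of it per cell cannot be told apart.

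CIROP, a metallopeptidase gene known from the left-right axis of the embryo, lies next to CEBPE (chr14:23099062-23104989). It fell from 5.93 and 6.69 RPKM in WT to 0.141 and 0.113 RPKM in AMPK KO cells (log2 difference -3.45, SE 0.248, adjusted p = 0.00125). The genes on either side of this pair did not pass the test: C14orf119 differed by -0.36 (adjusted p = 0.231), ACIN1 by -0.07 (adjusted p = 0.70) and SLC7A8 by -0.49 (adjusted p = 0.306). Of the 6 other tested members of the C/EBP family, none passed the test, with DDIT3, the stress factor CHOP, at 3.28 and 4.37 RPKM in WT and 6.81 and 9.75 RPKM in AMPK KO cells (log2 difference 0.99, adjusted p = 0.108).

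Other genes that fell from well-read levels included MAP7D2, TENM1 and PCDH19. MAP7D2 (chrX:20006713-20116907), of the MAP7 family of microtubule proteins, fell from 7.36 and 5.97 RPKM to 0.0893 and 0.0556 RPKM (log2 difference -3.64, SE 0.169, adjusted p = 5.46e-05), the only one of 18 tested MAP7 and neuronal microtubule genes to pass. TENM1, for the adhesion protein teneurin-1, fell from 5.74 and 6.99 RPKM to 0.115 and 0.116 RPKM (log2 difference -3.48, SE 0.203, adjusted p = 0.000279). The gene overlaps STAG2 on the opposite strand, which differed by 0.06 (adjusted p = 0.835). Its relative TENM3 fell from 15.6 and 14.2 RPKM to 7.65 and 7.51 RPKM (log2 difference -0.95, adjusted p = 0.0276), so that 2 of the 3 tested teneurin genes fell, while TENM4 differed by -0.01. PCDH19, a protocadherin, fell from 6.59 and 3.97 RPKM to 1.28 and 1.37 RPKM (log2 difference -1.64, adjusted p = 0.0276). PCDHGB5 fell by 1.33 on the log2 scale (adjusted p = 0.0412), and of 11 tested protocadherin genes these 2 passed, with a median of -0.67. These families were grouped after their values were seen, and members of the gamma protocadherin cluster share exons, which makes their levels uncertain.

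SPARC, SFRP2 and TUSC1 fell from low levels. SPARC, a matrix glycoprotein, was at 1.89 and 1.61 RPKM in WT and at 0.0280 and 0.0262 RPKM in AMPK KO cells (log2 difference -2.09, adjusted p = 0.00423). It was the only one of 27 tested mesenchymal and matrix genes to pass. SFRP2, a secreted modulator of Wnt signals, was at 1.62 and 1.87 RPKM against 0.0651 and 0.0912 RPKM (log2 difference -1.96, adjusted p = 0.00843). TUSC1, a gene named as a candidate tumour suppressor, fell from 1.83 and 4.38 RPKM to 0.132 and 0.0822 RPKM (log2 difference -2.48, SE 0.320, adjusted p = 0.0223).

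The histone gene H2BC10 stood at 5.61 and 9.79 RPKM in WT, from 65 reads, and had none in AMPK KO cells. That is at least 39.4-fold lower by the same floor, with a fitted log2 difference of -3.99 (SE 0.349, adjusted p = 0.00382), though histone genes are near-identical copies whose reads can be split in counting. FABP5, a carrier of fatty acids inside the cell, fell from 2.71 and 3.52 RPKM to 0.887 and 0.765 RPKM (log2 difference -1.45, adjusted p = 0.0223). The pseudogene FABP5P7, which shares sequence with it, was at 52.8 and 41.1 RPKM against 14.6 and 15.3 RPKM (log2 difference -1.63, adjusted p = 0.0289), so the source of these reads is uncertain. ZNF880, a zinc finger gene, fell by 1.34 on the log2 scale (adjusted p = 0.0305).

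MYC, a transcription factor of growth that serum induces, was at 28.1 and 20.5 RPKM in WT and at 6.89 and 6.99 RPKM in AMPK KO cells (log2 difference -1.74, SE 0.284, adjusted p = 0.0434), and passed under 8 of 18 alternatives (adjusted p = 0.0562 after a correction for G+C content). MYC was the only one of 33 tested immediate early genes to pass, and the median difference of these was 0.21, or 0.10 and 0.15 without WT DMSO replicates 2 and 3.

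Further genes outside the naming rule that fell were chosen after their values were seen. RIBC2, of ciliary microtubules, was at 1.99 and 1.22 RPKM in WT and 0 and 0.0665 RPKM in AMPK KO cells (log2 difference -1.97, adjusted p = 0.0142). PARP12, an interferon-induced ADP-ribosyltransferase, fell by 1.23 (adjusted p = 0.0228), and TAPBP, the tapasin that loads peptides on MHC class I, by 0.88 (adjusted p = 0.0434), both on the log2 scale. Among genes that do not code for protein, the largest falls by the rule were those of PIGUP1, a pseudogene, at -2.31 (adjusted p = 0.0305) and MIR3192, a microRNA locus, at -1.72 (adjusted p = 0.0223).

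The promoters of the genes lost and gained covered a wide range of CG content, and the windows below are shown to set a CG-poor promoter beside CG-rich ones. Each holds 250 bases before to 50 bases after the RefSeq start on GRCh38.p14, 5′ to 3′ on the gene's strand, with CG in capitals. CEBPE at chr14:23119206-23119505 (minus strand) and MAP7D2 at chrX:20116858-20117157 (minus strand) were lost, and SALL3 at chr18:78979568-78979867 (plus strand) was gained.
CEBPE: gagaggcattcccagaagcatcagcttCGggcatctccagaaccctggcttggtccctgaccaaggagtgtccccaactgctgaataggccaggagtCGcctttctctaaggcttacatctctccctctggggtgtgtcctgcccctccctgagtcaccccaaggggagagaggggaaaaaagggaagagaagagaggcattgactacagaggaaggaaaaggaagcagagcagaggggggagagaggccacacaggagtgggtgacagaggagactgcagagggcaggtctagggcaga
MAP7D2: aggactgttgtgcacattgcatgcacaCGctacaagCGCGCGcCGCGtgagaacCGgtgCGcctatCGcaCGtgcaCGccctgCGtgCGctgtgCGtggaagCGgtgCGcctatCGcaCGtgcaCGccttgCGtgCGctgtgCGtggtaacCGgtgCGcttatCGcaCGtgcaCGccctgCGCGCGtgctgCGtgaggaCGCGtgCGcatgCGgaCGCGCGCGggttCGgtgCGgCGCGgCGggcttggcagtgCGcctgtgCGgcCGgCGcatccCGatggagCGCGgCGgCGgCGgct
SALL3: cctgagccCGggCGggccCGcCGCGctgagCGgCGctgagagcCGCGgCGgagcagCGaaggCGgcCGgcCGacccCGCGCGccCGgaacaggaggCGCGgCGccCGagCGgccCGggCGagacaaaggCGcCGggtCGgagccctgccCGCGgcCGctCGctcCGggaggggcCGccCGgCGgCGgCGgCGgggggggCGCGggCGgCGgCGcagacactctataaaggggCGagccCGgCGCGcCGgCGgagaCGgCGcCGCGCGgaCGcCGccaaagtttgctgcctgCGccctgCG

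CG, which reads the same on both strands, occurs in 99.5% of the 10428 windows of tested protein-coding genes, with a median of 26 per window and quartiles of 18 and 35. The CEBPE window held 2, and 2.80% of all windows held as few or fewer. That of CIROP held 1. The MAP7D2 window held 54 and the SALL3 window 59, and 99.4% and 99.9% of windows held as few or fewer. The median was 18.5 over the 22 genes that fell and had a window, and 24.5 over the 38 that rose, both within the quartiles of all windows.

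The genes gained in AMPK KO cells started from low levels. CGA, the alpha subunit that the pituitary and placental glycoprotein hormones share, was at 0.562 and 1.63 RPKM in WT and at 6.98 and 6.79 RPKM in AMPK KO cells (log2 difference 2.28, SE 0.299, adjusted p = 0.0228). SULT1C4, a cytosolic sulfotransferase, rose from 0.368 and 0.259 RPKM to 3.43 and 3.47 RPKM (log2 difference 2.26, SE 0.257, adjusted p = 0.0143). In both genes the groups lay far apart, and the AMPK KO replicates were close together. Of the 6 tested genes of glycoprotein hormones and placenta, CGA alone passed. Of 12 tested genes of sulfotransferases and drug metabolism, SULT1C4 and SULT4A1 passed, and SULT4A1, a sulfotransferase of the brain, was at 4.5 and 3.82 RPKM against 9.89 and 12.5 RPKM (log2 difference 1.30, adjusted p = 0.0298).

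The windows of these 2 genes, drawn as above from chr6:87095057-87095356 (minus strand) for CGA and chr2:108377704-108378003 (plus strand) for SULT1C4, are shown because both hold the motif TGACGTCA, known as the cAMP response element, in capitals.
CGA: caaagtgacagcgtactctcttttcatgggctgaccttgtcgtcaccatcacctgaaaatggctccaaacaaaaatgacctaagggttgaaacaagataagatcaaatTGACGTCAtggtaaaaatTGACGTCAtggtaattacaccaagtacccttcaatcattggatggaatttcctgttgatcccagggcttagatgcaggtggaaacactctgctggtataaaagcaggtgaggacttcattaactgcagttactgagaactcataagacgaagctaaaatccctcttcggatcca
SULT1C4: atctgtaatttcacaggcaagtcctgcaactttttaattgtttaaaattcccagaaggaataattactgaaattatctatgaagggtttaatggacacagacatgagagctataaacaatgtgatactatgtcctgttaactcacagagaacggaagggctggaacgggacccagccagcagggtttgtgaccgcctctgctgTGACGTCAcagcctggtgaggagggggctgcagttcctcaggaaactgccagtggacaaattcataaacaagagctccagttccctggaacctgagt

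The motif is its own reverse complement, so 1 search covered both strands, and it was looked for after these windows were read. It occurred 2 times in the CGA window and 1 time in that of SULT1C4. Of all 10428 windows, 359 (3.44%) held it, as did those of 4 of the 38 genes that rose, the others being NOC4L and ZDBF2, and of none of the 22 that fell. A match of letters is a description and says nothing of binding.

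SALL3, a developmental zinc finger factor, rose from 0.480 and 0.435 RPKM to 3.01 and 3.14 RPKM (log2 difference 1.88, SE 0.222, adjusted p = 0.0188). SALL1 and SALL2 did not pass, and the median over the 3 genes was -0.21. ARHGAP4, a GTPase-activating protein, rose from 0.284 and 0.534 RPKM to 2.78 and 3.13 RPKM (log2 difference 1.92, adjusted p = 0.0223). COL7A1, the collagen of anchoring fibrils in skin, rose from 0.659 and 0.915 RPKM to 3.56 and 4.76 RPKM (log2 difference 1.83, adjusted p = 0.0322).

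Other genes rose from levels already well read in WT cells. RADX, which binds single-stranded DNA at replication forks, went from 9.76 and 10.8 RPKM to 30.0 and 29.7 RPKM (log2 difference 1.48, SE 0.128, adjusted p = 0.00382). MYOM2, a protein of the muscle M band, rose from 4.18 and 3.52 RPKM to 10.3 and 12.1 RPKM (log2 difference 1.41, adjusted p = 0.0139). FZD7, a Wnt receptor, rose from 5.24 and 5.52 RPKM to 12.4 and 15.0 RPKM (log2 difference 1.24, adjusted p = 0.0078), the only one of 9 tested Frizzled genes to pass. ISG15, the ubiquitin-like protein induced by interferon, was at 4.34 and 3.72 RPKM in WT and at 12 and 13.1 RPKM in AMPK KO cells (log2 difference 1.51, adjusted p = 0.019). It was the only one of 22 tested members of the interferon and antigen presentation list to pass, with 4 higher and 3 lower at the unadjusted p and a median of 0.05. PARP12 and TAPBP, which fell, are not on that list. GADD45G, a stress-response gene, rose by a log2 difference of 1.34 (adjusted p = 0.0434) and the zinc finger gene ZNF783 by 1.31 (adjusted p = 0.0311).

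GRM7, a metabotropic glutamate receptor gene, had no read in either WT library and was at 1.5 and 1.81 RPKM in AMPK KO cells, from 435 reads. It was chosen after its values were seen, since its mean over the 4 libraries was under the limit of 1 RPKM for named genes. The difference was at least 95.5-fold by the floor of 3 reads over both WT libraries (fitted log2 difference 2.09, adjusted p = 0.00153). GRM7-AS1, which overlaps it on the opposite strand, had no read in WT and 27 in AMPK KO cells, at least 5.92-fold higher (fitted log2 difference 2.09, adjusted p = 0.00817), and its reads cannot be told apart from those of GRM7 unless strand was counted. Among genes that do not code for protein, the largest rises by the rule were those of ENSG00000230648, at 2.36 (adjusted p = 0.0434), and the pseudogene HSD17B1P1, at 1.91 (adjusted p = 0.0223).

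Of the 378 tested genes in 14 lists of metabolism, 1 passed (0.265%), beside 0.44% of all tested genes. At an unadjusted p under 0.05, 66 of the 378 were higher and 21 lower, beside 2658 (12%) and 2049 (9.29%) of all 22067. That count is given for some of the lists that follow. The median of all tested genes was 0.01 on the log2 scale. Over all 46 lists, 14 of 908 tested genes passed (1.54%), 8 higher and 6 lower, but lists of signalling and identity genes were drawn up with some of these genes known to differ.

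For the pathways that yield energy, none of 26 glycolysis and glucose uptake genes passed the adjusted test, and 1 was higher at the unadjusted p (PFKFB4, which makes a sugar phosphate that activates glycolysis, at 1.04 and 1.38 RPKM against 1.64 and 2.46 RPKM, with a log2 difference of 0.55 and adjusted p = 0.201). Of 25 tested genes of fatty acid oxidation and ketone bodies, SLC25A20 passed, the carrier that brings acylcarnitines into mitochondria. It was at 3.62 and 3.14 RPKM in WT and 6.54 and 6.27 RPKM in AMPK KO cells (log2 difference 0.81, adjusted p = 0.0464). The list had a median of 0.13, with 5 members higher and 2 lower at the unadjusted p, and its median was -0.02 in each other treatment. None of 24 tricarboxylic acid cycle genes passed (median 0.05), with 3 higher and 3 lower at the unadjusted p.

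Of 51 tested nuclear genes of oxidative phosphorylation, none passed, while 8 were higher and 1 lower at the unadjusted p, with a median of 0.17 that was 0.11 without either WT DMSO library. The median of this list was -0.13 with EGF and -0.21 with cordycepin and EGF. UQCRC1, of complex III, was at 26.4 and 26.7 RPKM against 45.9 and 60.4 RPKM (log2 difference 0.95, adjusted p = 0.0702), and NDUFS1, of complex I, at 11.5 and 14.8 RPKM against 22.2 and 27.3 RPKM (log2 difference 0.87, adjusted p = 0.073). The 13 mitochondrially encoded mRNAs had a median of -0.55 in DMSO, none passing at either p, and of 0.07 with EGF and 0.38 with cordycepin and EGF. Their summed level in DMSO was 25056 and 44669.6 RPKM in WT and 24859 and 21976 RPKM in AMPK KO cells, so that 1 WT library stood apart. The DMSO median was -0.08 without WT DMSO replicate 3 and -1.02 without WT DMSO replicate 2.

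For the pathways that spend energy, none of 26 cholesterol synthesis and uptake genes passed, with 10 higher and 1 lower at the unadjusted p and a median of 0.23, which was 0.17 without WT DMSO replicate 2 and 0.38 without WT DMSO replicate 3. The median of this list was 0.16 with EGF and -0.28 with cordycepin and EGF. ACAT2, which joins acetyl-CoA units at the start of the pathway, was at 19.7 and 21.0 RPKM against 32.9 and 41.7 RPKM (log2 difference 0.83, adjusted p = 0.089). SCAP, the escort of the SREBP factors, was at 15.7 and 19.8 RPKM against 24.9 and 28.3 RPKM (log2 difference 0.55, adjusted p = 0.0717). Of 20 fatty acid and lipid synthesis genes, none passed, with 1 higher and 3 lower at the unadjusted p (median -0.21, or -0.12 and -0.31 without WT DMSO replicates 2 and 3). Their median was -0.16 with EGF and 0.05 with cordycepin and EGF. ACSL4, which activates arachidonic acid, was at 15.7 and 9.62 RPKM against 5.44 and 5.24 RPKM (log2 difference -1.15, adjusted p = 0.0577), and FASN, fatty acid synthase, at 122 and 150 RPKM against 179 and 207 RPKM (log2 difference 0.48, adjusted p = 0.134).

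AMPK also acts on growth and on recycling. Of 46 tested autophagy and lysosome genes, none passed, with 10 higher and 3 lower at the unadjusted p and a median of 0.21, or 0.12 and 0.27 without WT DMSO replicates 2 and 3. The median of this list was 0.14 with EGF and -0.22 with cordycepin and EGF. ULK1, the kinase that starts autophagy and a known AMPK substrate, was at 6.69 and 13 RPKM against 20.1 and 22.1 RPKM (log2 difference 1.11, adjusted p = 0.0746). Of 31 mTORC1 regulators, none passed, with 9 higher and 2 lower (median 0.18, or 0.12 and 0.27 without WT DMSO replicates 2 and 3). Their median was 0.02 with EGF and -0.16 with cordycepin and EGF. NPRL2, of the GATOR1 complex that restrains mTORC1, was at 3.99 and 3.28 RPKM against 7.12 and 7.68 RPKM (log2 difference 0.92, adjusted p = 0.0546). STK11, which encodes the AMPK-activating kinase LKB1, was at 6.15 and 8.26 RPKM against 11.8 and 14.1 RPKM (log2 difference 0.79, adjusted p = 0.068).

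The p53 targets had the highest median among lists of 5 or more tested genes, 0.45, or 0.37 and 0.60 without WT DMSO replicates 2 and 3, with 19 of 20 above 0. Of the 20, 2 passed, and 10 were higher and 0 lower at the unadjusted p. CDKN1A, the p21 inhibitor of cyclin-dependent kinases, rose from 11.0 and 10.8 RPKM to 20.5 and 22.8 RPKM (log2 difference 0.93, adjusted p = 0.0228). XPC, which recognises damaged DNA, rose from 7.40 and 7.39 RPKM to 13.2 and 13.6 RPKM (log2 difference 0.80, adjusted p = 0.0223). The median of this list was 0.34 with EGF and 0.07 with cordycepin and EGF. In HEK293 cells p53 is bound by adenoviral protein, and its activity was not measured here.

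**Figure D2:**
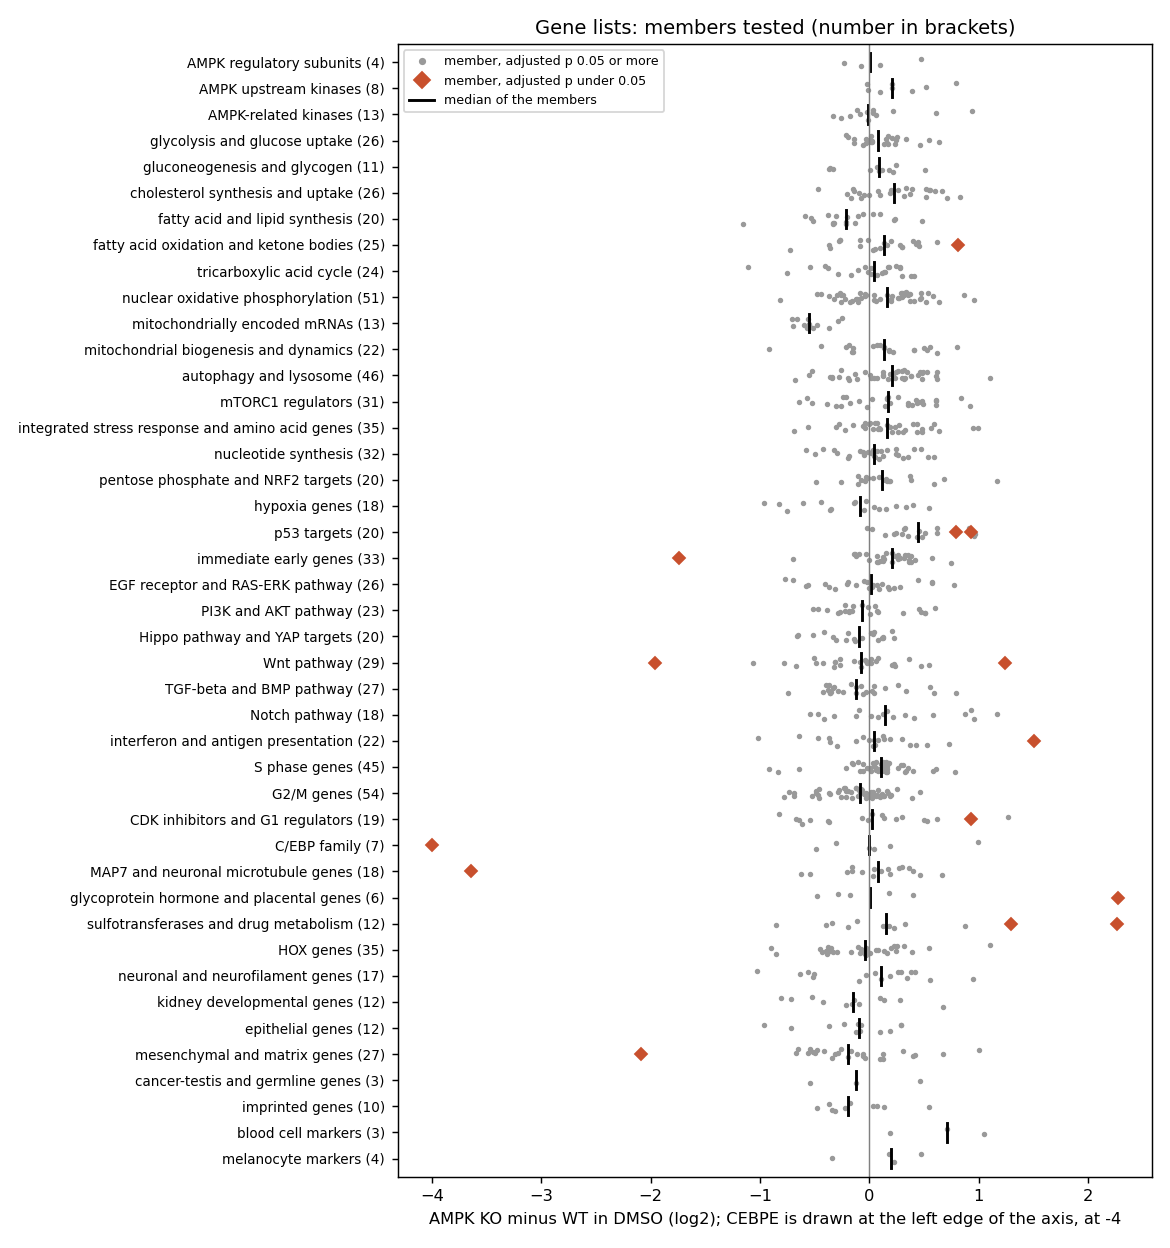
Difference between AMPK KO and WT cells in DMSO (horizontal axis, log2) for the tested members of each list with at least 3 such members (number in brackets), with grey points for members that did not pass, orange diamonds for those that did and a black bar for the median. Most medians lie near 0. That of the mitochondrially encoded mRNAs lies at -0.55, that of the p53 targets at 0.45 and that of the 3 tested blood cell markers at 0.71. CEBPE is drawn at the edge of the axis.

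The line difference was also compared between chromosomes. In each library, the median over the genes of a chromosome, each relative to its mean over the 12 libraries, was compared between lines over 6 against 6 libraries by an exact two-sided permutation test within treatment, whose smallest possible p is 0.00926; the 4 DMSO libraries alone cannot go below 0.333. After Benjamini-Hochberg adjustment over 23 chromosomes, 7 passed (30.4%), each at adjusted p = 0.0304. As p is bounded in this way, a chromosome can pass only if several others also have a p near that bound. Chromosomes 18 (0.30, 308 genes) and 3 (0.13, 990 genes) were higher in AMPK KO cells on the log2 scale, and chromosomes 14 (-0.11), 4 (-0.08), 8 (-0.08), 10 (-0.06) and X (-0.05) were lower. None passed when replicate 2 or replicate 3 of the AMPK KO DMSO group was left out, with 8 chromosomes at an unadjusted p under 0.05 each time, and 6 passed without either WT DMSO library. Chromosome X (adjusted p = 0.071) no longer passed without WT DMSO replicate 2, and without WT DMSO replicate 3 chromosomes 18 (adjusted p = 0.0532) and X (adjusted p = 0.142) no longer passed and chromosome 7 did (adjusted p = 0.0355).

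Within the chromosomes, runs of 10 Mb windows stood apart, and these were delimited after their values were seen, as those beyond 0.2 on the log2 scale in the mean over treatments, so that the direction of the genes inside them follows from the choice and carries no test. The longest were on chromosome 2 from 190 to 250 Mb and on chromosomes 3 and 18 from 0 to 60 Mb. On chromosome 2, the 274 genes had medians of -0.14 and -0.25 in the WT DMSO libraries and of 0.22 and 0.19 in the AMPK KO DMSO libraries. The difference was 0.40 in DMSO, 0.40 with EGF and 0.43 with cordycepin and EGF, and 81.1% of the 333 tested genes there were higher in AMPK KO cells in DMSO, against 51.0% of all tested genes. On chromosome 3, the 428 genes had medians of -0.12 to -0.16 over the 6 WT libraries and 0.13 to 0.17 over the 6 AMPK KO libraries. On chromosome 18, the 250 genes differed by 0.19 in DMSO, 0.30 with EGF and 0.40 with cordycepin and EGF.

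The largest shift downwards was on chromosome 4 from 180 to 190 Mb, where 33 genes differed by -0.59 in DMSO, -0.47 with EGF and -0.53 with cordycepin and EGF. It holds TENM3 and RWDD4, both of which fell. On chromosome 14 from 20 to 40 Mb, which holds CEBPE and CIROP, the 147 genes differed by -0.23 in DMSO. Of the 12 regions in all, 7 higher and 5 lower, those on chromosomes 7 and 8 overlapped between the lines over 12 libraries, and the other 10 did not. Of all 272 single windows, 28 (10.3%) did not overlap. The regions were delimited on these same 12 libraries, so the choice favours their lack of overlap. Some regions also join several windows, so the counts of regions and of windows are not of like units.

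**Figure D3:**
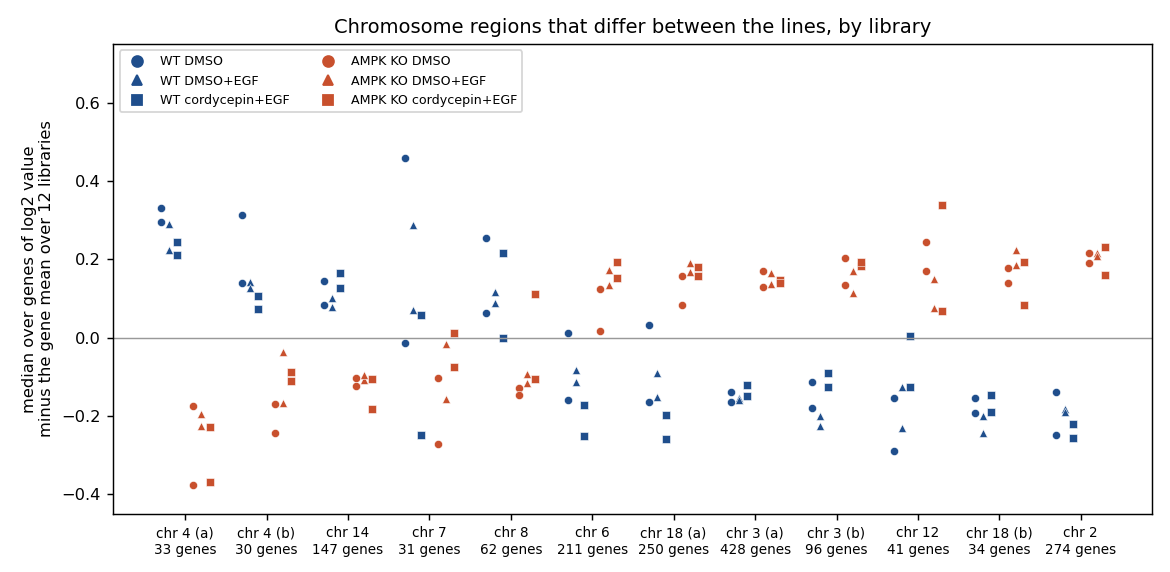
Median over the genes of each region of the log2 value minus the gene's mean over the 12 libraries (vertical axis), with 1 point per library, blue for WT and orange for AMPK KO cells and the shape giving the treatment; chr 4 (a) is 180 to 190 Mb and (b) 160 to 170 Mb, chr 18 (a) 0 to 60 Mb and (b) 70 to 80 Mb, chr 3 (a) 0 to 60 Mb and (b) 120 to 130 Mb. The WT libraries lie above the AMPK KO ones on the left and below them on the right, with overlap on chromosomes 7 and 8.

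The 7 higher regions held 7.26% of tested genes and 26 of the 62 genes (41.9%) that rose, a share that the choice of regions favours. Of these, 16 lie on chromosome 3 from 0 to 60 Mb. COL7A1, XPC, SLC25A20, GRM7, PLXNB1, a semaphorin receptor, USP19, a deubiquitinase, and IP6K1, an inositol phosphate kinase, lie there, and FZD7, ZDBF2 and DTYMK, thymidylate kinase, lie on chromosome 2 from 190 to 250 Mb. Of the list members named with the metabolic pathways, UQCRC1, NDUFS1, ACAT2, SCAP, ULK1, NPRL2, PFKFB4 and SLC25A20 lie in the higher regions, and FASN, ACSL4 and STK11 do not. Over all lists, 63 of 908 tested members lie there, and 33 of the 139 members higher at the unadjusted p. Of the 8 such oxidative phosphorylation genes 4 lie there, and the median of that list was 0.06 outside all regions. Whether position plays a part in these differences was not tested, and copy number was not measured.

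The line difference was also measured in 8 libraries that this comparison did not use, 4 with EGF and 4 with cordycepin and EGF, though 1 fit shared the estimate of the spread over all 12. Of the 97 genes, 94 had the same direction with EGF and 44 passed the test there (background 1.74% of tested genes), and 79 had the same direction with cordycepin and EGF and 19 passed (background 0.118%). The share of all tested genes that kept their direction is not given here, so the counts of 94 and 79 have no background beside them. The 19 genes, 7 higher and 12 lower, passed in all treatments. They included CEBPE, CIROP, MAP7D2, TENM1, H2BC10, TUSC1, SPARC, SFRP2 and FABP5 among those that fell, and RADX, MYOM2, SALL3 and GRM7 among those that rose. The median difference of the 62 genes that rose was 1.18 in DMSO, 0.65 with EGF and 0.27 with cordycepin and EGF, and that of the 35 that fell -1.51, -1.19 and -0.65, where the choice of genes on the DMSO values favours the first. Over the 12 libraries, 52 of the 97 did not overlap between lines, beside 2.68% of all tested genes. The 12 include the 4 DMSO libraries on which the genes were chosen. All 97 were already apart in those 4, so the choice favours this share. The count of 19 was 5 without either AMPK KO DMSO library.

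**Figure D4:**
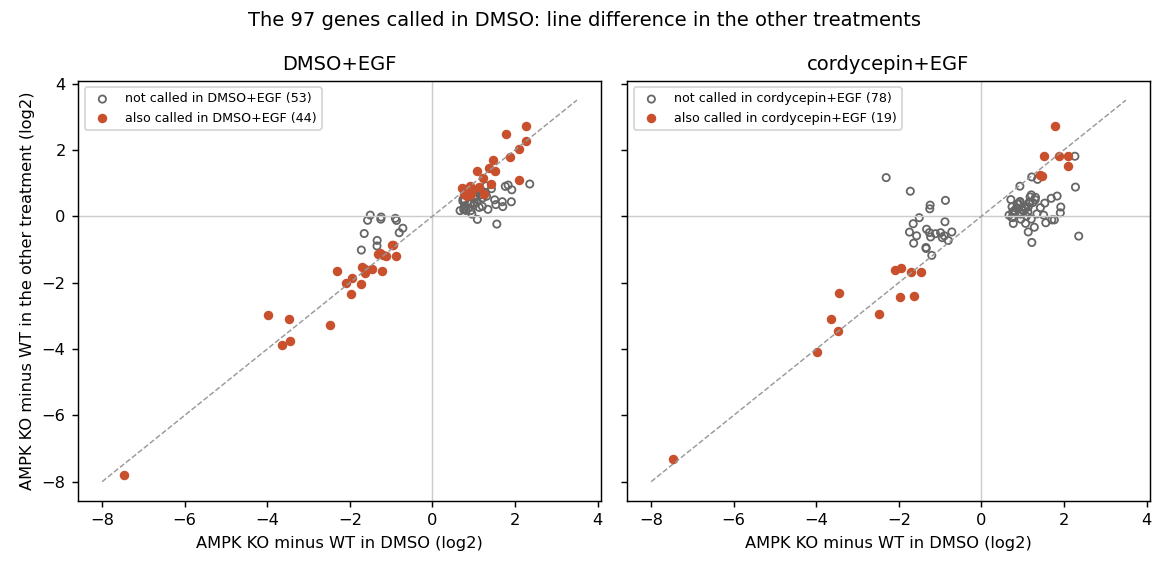
For the 97 genes that passed in DMSO, the difference between AMPK KO and WT cells with EGF (left) and with cordycepin and EGF (right) on the vertical axes against that in DMSO on the horizontal axes, all log2, with filled points for genes that passed there too (44 and 19), open points for the others (53 and 78) and a dashed line of equality. With EGF 94 of the 97 points share the sign of the DMSO difference, and with cordycepin and EGF 79 do, without a share over all tested genes.

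Some genes stood apart in the other treatments. ISG15 differed by 0.49 with EGF (adjusted p = 0.156) and 0.03 with cordycepin and EGF (adjusted p = 0.947). ARHGAP4 differed by 0.80 (adjusted p = 0.112) and 0.28 (adjusted p = 0.626), CGA by 2.73 (adjusted p = 0.0132) and 0.88 (adjusted p = 0.28), and MYC by -2.04 (adjusted p = 0.0199) and -0.48 (adjusted p = 0.471). The change of the line difference with treatment itself passed for no gene in limma, with EGF (1917 genes, 8.69%, at an unadjusted p under 0.05) or with cordycepin and EGF (4905 genes, 22.2%). With voom weights on the recovered reads, it passed for 0 genes with EGF and for 2551 with cordycepin and EGF.

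The line difference in DMSO moved with the G+C content of the genes. In 4 equal groups of the tested genes by G+C content, the median difference was -0.13, -0.06, 0.03 and 0.23 from the lowest to the highest group in DMSO, whereas with EGF it went from 0.05 to -0.08. Of the libraries, WT DMSO replicate 2 had the steepest slope, -0.218 on the log2 scale per 10 percentage points of G+C, against -0.0496 in WT DMSO replicate 3, 0.000529 and 0.0855 in the AMPK KO DMSO libraries and -0.0518 to 0.143 in the others. From the lowest to the highest group, each of 5511 tested genes, the 62 genes that rose numbered 4, 5, 15 and 38. The 35 that fell numbered 11, 7, 11 and 6, without such a gathering in 1 group. After a correction for G+C content in each library, 59 genes passed, 29 higher and 30 lower, in place of 62 and 35, and 52 of the 97 were among them. ISG15 (adjusted p = 0.0536), CDKN1A (adjusted p = 0.0773), GADD45G (adjusted p = 0.0775), SLC25A20 (adjusted p = 0.0562), SULT4A1 (adjusted p = 0.0503), ZNF783 (adjusted p = 0.0622) and ZNF880 (adjusted p = 0.0537) no longer passed, nor did MYC. No chromosome then passed over 23, with 6 at an unadjusted p under 0.05 (smallest adjusted p = 0.0532). Chromosomes 18, 3, 14 and 8 nevertheless stayed at the smallest possible p of the permutation test, 0.00926. Their differences were 0.31, 0.14, -0.12 and -0.07, close to the 0.30, 0.13, -0.11 and -0.08 before the correction.

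**Figure D5:**
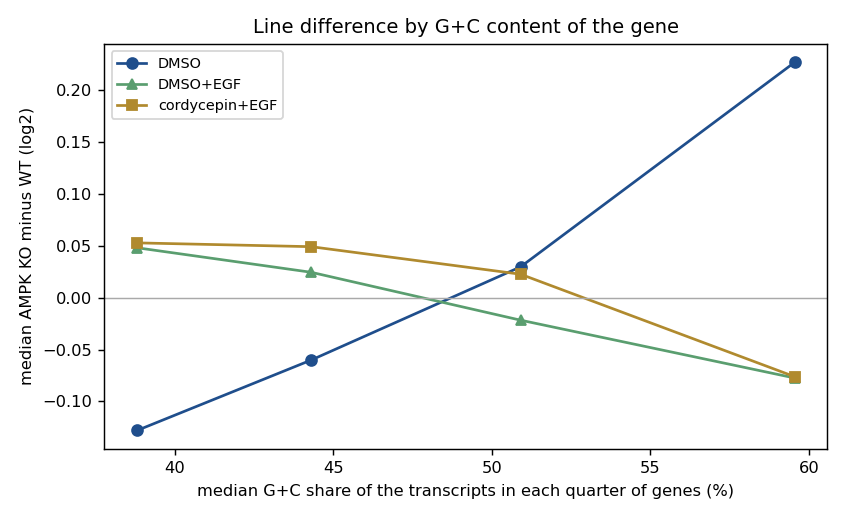
Median difference between AMPK KO and WT cells (vertical axis, log2) in 4 equal groups of the tested genes by the G+C share of their transcripts (horizontal axis, percent), with a line for each treatment. In DMSO the median rises from -0.13 to 0.23, and in the other treatments it falls from 0.05 to -0.08.

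Of the remaining lists, growth and signalling genes passed rarely. In the Wnt pathway, FZD7 rose and SFRP2 fell among 29 tested genes, and SFRP1, a relative of SFRP2, differed by -1.06 and did not pass. None of 26 EGF receptor and RAS-ERK genes, 23 PI3K and AKT genes, 20 Hippo and YAP genes, 27 TGF-beta and BMP genes or 18 Notch genes passed. Of the cell cycle lists, none of 45 S phase genes passed, with 4 higher and 2 lower at the unadjusted p, and none of 54 G2/M genes, with 3 higher and 11 lower. Of 19 CDK inhibitors and G1 regulators, CDKN1A passed, with 4 higher and 4 lower at the unadjusted p. Of 35 integrated stress response and amino acid genes none passed, with 7 higher and 0 lower at the unadjusted p. Of 18 hypoxia genes none passed, with 1 higher and 5 lower at the unadjusted p. HIF1A was at 51.2 and 48.5 RPKM against 32.4 and 24.9 RPKM (log2 difference -0.82, adjusted p = 0.0657).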

How the data were processed

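The authors sequenced stranded, ribosomal RNA-depleted total RNA as paired reads, checked them with FastQC, mapped them to GRCh38.p13 and counted them per gene with Rsubread, discarding replicate 1 of every condition (not analysed here). The authors deposited RPKM values without dividing by the upper quartile. Versions and the strand setting of the counting are not given in the sources used here. Here RPKM were scaled to a common upper quartile and tested as log2(RPKM + 0.5) with limma 3.58.1 in R 4.3.3 (group means of all 12 libraries, moderated spread with a trend, two-sided, Benjamini-Hochberg adjustment). Differences on this scale understate the change of low genes. Whole reads (within 0.05 of a whole number) were recovered for 96.25% of genes at their annotated length and for 99.97% after a search over lengths, which gave the read counts and floors. Of 26058 genes, 26029 matched GENCODE 44, the source of names and gene coordinates. The 2 rows that name no gene were left out. Named genes were PRKAA1, PRKAA2, CEBPE and MAP7D2, the 10 largest rises and falls among protein-coding genes that passed (mean of at least 1 RPKM in DMSO, groups not overlapping), 2 each among other genes, the list members that passed or else up to 2 with the smallest p, and the most abundant marker of each other cell type. The tests were checked on simulated data with the same spread in every group, independent genes and no trend with G+C content. The data differ in these respects, so that check does not show that the p-values hold here. The members, lists and alternatives were chosen with earlier results of these data known.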

Additional observations from a re-analysis of the deposited data

How the results depend on the processing

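The number of genes that passed in DMSO, 97, was 188 with no filter on low values, 1787 with voom weights on the recovered reads, 63 with a replicate block within each line, 59 after the G+C correction, 7 with array weights (which gave both WT DMSO libraries 0.365) and 1 with only the groups compared. Leaving out 1 DMSO library gave 5 to 3065. At the study's threshold the count of 863 was 1477 with a pseudocount of 0.1, 464 with 1 and 1975 with voom, and 703 to 2023 without 1 library. The 19 genes that passed in every treatment became 69 with voom, 7 with array weights, 1 with only the groups compared and 5 to 28 without 1 library. The 7 chromosomes became 0 with genes of at least 5 RPKM, with means in place of medians and after the G+C correction, with 3, 6 and 6 at an unadjusted p under 0.05, and 0 to 6 without 1 library. None of the named genes changed direction under these alternatives. The 7 chromosomes also kept their direction with genes of at least 5 RPKM, with means and after the G+C correction. Chromosome 18 differed by 0.36, 0.29 and 0.31 in these settings.

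Replicate numbers did not pair the lines compared: deviations of same-numbered libraries correlated at 0.0851 between the lines in DMSO, from -0.122 to 0.0307 among the AMPK KO groups and from 0.136 to 0.314 among the WT groups. With the block within each line, PRKAA1, MYC, ZNF880, COL7A1, GADD45G, ZNF783, SLC25A20, SULT4A1, ENSG00000230648 and HSD17B1P1 no longer passed, and NDUFS1 did. With a replicate block, 117 genes passed (75 higher, 42 lower), and 70 with the block and the G+C correction together. WT DMSO replicate 3 limits what low genes can show.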

Other observations

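A further 5 genes that passed in DMSO were picked after their values were seen. FLNA, which crosslinks actin, was at 53.6 and 63.7 RPKM in WT and at 102 and 99.2 RPKM in AMPK KO cells (log2 difference 0.76, adjusted p = 0.0373, limma), but differed by -0.04 with cordycepin and EGF. CAPN1, a calcium-dependent protease, was at 4.12 and 4.70 RPKM against 7.73 and 8.25 RPKM (log2 difference 0.77, adjusted p = 0.0305). SERPINF1, a secreted inhibitor of vessel growth, was at 2.32 and 2.74 RPKM against 5.39 and 5.30 RPKM (log2 difference 0.93, adjusted p = 0.0306), and its 6 AMPK KO libraries lay above its 6 WT libraries. SPCS3, a subunit of the signal peptidase, was lower, at 29.9 and 27.8 RPKM against 15.6 and 17.5 RPKM (log2 difference -0.80, adjusted p = 0.0412). AADAT, an aminotransferase of lysine and tryptophan breakdown, was at 9.43 and 10.4 RPKM against 6.19 and 5.64 RPKM (log2 difference -0.72, adjusted p = 0.0412).

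Other lists had no member that passed. Among 35 HOX genes (median -0.04), HOXC11 was at 1.78 and 2.89 RPKM against 5.61 and 5.52 RPKM (log2 difference 1.11, adjusted p = 0.0621). Among 13 AMPK-related kinases (median -0.01), BRSK1 was at 4.72 and 10.9 RPKM against 14.5 and 14.5 RPKM (log2 difference 0.94, adjusted p = 0.146). Among 20 pentose phosphate and NRF2 target genes (median 0.12), SRXN1, which repairs peroxiredoxins, was at 0.953 and 1.97 RPKM against 3.68 and 3.96 RPKM (log2 difference 1.17, adjusted p = 0.0816). Among 12 epithelial genes (median -0.09), CDH1, which encodes E-cadherin, was at 1.53 and 1.51 RPKM against 0.813 and 0.679 RPKM (log2 difference -0.71, adjusted p = 0.0783), and its 6 AMPK KO libraries lay below its 6 WT libraries.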
